A study of Mus musculus with 4 samples.

Results

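The Sonic hedgehog genes described here are *Shh*, *Ptch1*, *Smo*, *Gli1*, *Gli2*, *Gli3*, *Sufu*, *Hhip* and *Boc*, which were chosen by name as the core of the pathway, and all 9 were found among the 55573 genes counted in each library. In tdTomato-positive cells sorted at E16, the mRNAs of the 3 *Gli* transcription factors and of the receptor *Ptch1* were higher after *Dnmt1* deletion. *Gli2* was 20.8-fold, *Gli3* 9.07-fold, *Gli1* 9.02-fold and *Ptch1* 1.84-fold higher in KO than in WT. *Hhip* was 5.02-fold higher at an adjusted p of 0.052, just outside the threshold, while *Shh*, *Smo*, *Sufu* and *Boc* differed by at most 1.58-fold and did not pass the test.

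Sonic hedgehog is a secreted lipid-modified protein that patterns the ventral forebrain, including the preoptic area (POA), and maintains progenitor and glial cells later on. In the absence of ligand, the receptor PTCH1 holds the membrane protein SMO inactive, and SUFU together with the kinase PKA keeps the GLI factors in a repressed or processed form at the primary cilium. Ligand binding to PTCH1 and to co-receptors such as BOC releases SMO, GLI2 and GLI3 are then no longer processed to repressors, and *Gli1*, *Ptch1* and *Hhip* are transcribed as direct targets. In the mature brain, neurons are a source of SHH, and astrocytes are among the cells that express *Gli* genes.

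The libraries were made from cells of *Hmx3-Cre/tdTomato/Dnmt1* mice, in which the *Hmx3* promoter drives Cre and thereby switches on the tdTomato reporter in WT and KO alike. WT cells carried wild-type *Dnmt1*, and in KO cells Cre removed the floxed exons 4 and 5 of *Dnmt1*, which gives a null allele. There were 2 libraries per genotype. The series description gives pools of 12 WT and 6 KO embryos and calls the libraries biological replicates, whereas the methods of the study call them technical duplicates of pooled samples, so the SDs and p-values describe the spread between libraries and may not cover the spread between embryos. The labels give the basal telencephalon as the dissected region, and the study names the POA.

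Total counts lay between 8075102 and 9995968 per library, so that 1 count corresponded to 0.098 to 0.124 CPM (counts relative to the TMM-scaled library size). Counts of the libraries of 1 genotype differed by more than sampling noise in WT (chi-square per degree of freedom 57.1) and in KO (4.28), and the share of mitochondrial rRNA was 8.66% in WT 1 and 1.51% to 2.32% in the others. *Dnmt1* itself was counted 3103 and 4557 times in WT, 2383 and 2552 times in KO, which is -0.56 on the log2 scale and just missed the threshold (adjusted p by edgeR = 0.0511). The counts cover the whole gene and do not isolate the floxed exons. *Hmx3*, which drives the Cre, had 604 to 919 counts in all 4 libraries, and the general neuron markers *Map2* and *Tubb3* were among the abundant genes with at least 9872 counts in every library, so that the labelled cell type was present in both genotypes.

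Since DNMT1 acts on CpG dinucleotides, upstream sequences are shown for *Ptch1*, *Gli2* and *Gli3*, which are 3 of the 4 called genes, and for *Sufu*, which did not pass the test. RefSeq promoter windows on GRCm38.p6 were held for 6 of the 9 genes, namely *Gli2*, *Gli3*, *Ptch1*, *Hhip*, *Smo* and *Sufu*. The 250 bases before the annotated start are given from 5′ to 3′ on the strand of the gene, with CpG dinucleotides in capitals. They lie at chr13:63565736-63565985 on the minus strand for *Ptch1*, at chr1:119053620-119053869 on the minus strand for *Gli2*, at chr13:15463473-15463722 on the plus strand for *Gli3* and at chr19:46396646-46396895 on the plus strand for *Sufu*. No exon of the same gene overlaps these windows in GENCODE M21, although longer transcripts of *Ptch1* and *Gli3* start further upstream and span theirs as an intron.
Ptch1: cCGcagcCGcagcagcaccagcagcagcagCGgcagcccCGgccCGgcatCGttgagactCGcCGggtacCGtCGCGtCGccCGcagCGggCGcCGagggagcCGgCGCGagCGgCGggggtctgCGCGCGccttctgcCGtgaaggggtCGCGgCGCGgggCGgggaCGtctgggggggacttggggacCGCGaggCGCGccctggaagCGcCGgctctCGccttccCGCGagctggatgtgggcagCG
Gli2: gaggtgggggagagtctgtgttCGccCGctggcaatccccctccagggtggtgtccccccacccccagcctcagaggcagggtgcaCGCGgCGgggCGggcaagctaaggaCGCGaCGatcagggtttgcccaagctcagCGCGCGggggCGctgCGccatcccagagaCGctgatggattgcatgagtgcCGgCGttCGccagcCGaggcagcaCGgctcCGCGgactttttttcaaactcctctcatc
Gli3: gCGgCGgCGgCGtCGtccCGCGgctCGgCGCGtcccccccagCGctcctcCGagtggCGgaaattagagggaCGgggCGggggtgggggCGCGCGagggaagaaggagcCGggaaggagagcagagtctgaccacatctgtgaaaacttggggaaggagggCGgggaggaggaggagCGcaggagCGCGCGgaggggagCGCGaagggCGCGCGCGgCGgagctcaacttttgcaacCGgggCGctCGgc
Sufu: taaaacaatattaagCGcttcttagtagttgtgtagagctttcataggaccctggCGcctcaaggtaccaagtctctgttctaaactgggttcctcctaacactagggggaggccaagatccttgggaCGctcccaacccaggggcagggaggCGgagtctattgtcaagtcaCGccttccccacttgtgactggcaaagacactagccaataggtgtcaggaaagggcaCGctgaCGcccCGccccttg

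The *Ptch1* window held 41 CpG dinucleotides in 250 bases, that of *Gli3* 34, that of *Hhip* 28 and that of *Gli2* 22, whereas those of *Smo* and *Sufu* held 15 and 8. The median over all 32851 RefSeq promoter windows was 6, with quartiles of 2 and 16. The windows of these 3 called genes were thus among the CpG-rich ones, with 98.9% (*Ptch1*), 96.5% (*Gli3*) and 85.2% (*Gli2*) of all windows holding fewer CpGs, and *Hhip* stood at 92.4%. *Smo* and *Sufu*, which did not pass the test, stood at 72.7% and 57%, so that all 6 windows lay above the median. DNA methylation was not measured in these libraries, and 6 genes are too few for a test. The study also reports MeDIP sequencing of sorted WT and KO cells of the same age, which was not read here. Among genes changed in both expression and methylation, it describes most as increased in both. The GLI binding sequence GACCACCCA was searched on both strands of the full windows of 300 bases, which 0.253% of all promoter windows hold. It was found in 0 of the 6 windows, which says only that these letters are not in the windows.

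Across all tested genes, 7.90% differed between genotypes at an edgeR adjusted p under 0.05, with 7.33% higher and 0.570% lower in KO. Of the 9 Sonic hedgehog genes, which all passed the filter on low counts, 4 were higher and 0 lower (0 lower also at an unadjusted p under 0.05, with DESeq2 and with limma-voom). The median of their log2 fold changes was 0.88, against -0.026 over all tested genes. Higher genes made up 92.8% of all calls, and 74.4% when each library was corrected for its own dependence on exonic length and GC content. The share of higher genes also fell when WT 1 or WT 2 was left out, and without WT 2 lower calls outnumbered higher ones. The cause of this was not tested. In all 9 genes both KO libraries lay above both WT libraries in CPM, a pattern found in 28.3% of all tested genes, while 25.2% had both KO libraries below. In RNA from a pool of sorted cells, a change in the number of cells of a type and a change in the RNA per cell cannot be told apart.

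**Figure D1:**
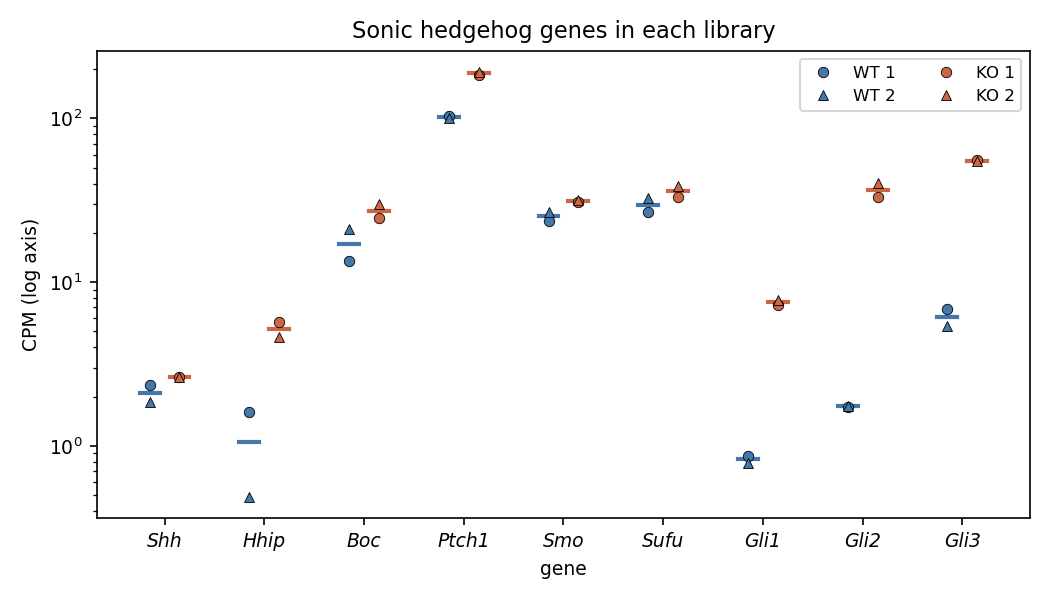
CPM of each Sonic hedgehog gene (x axis) on a log axis, with circles for replicate 1, triangles for replicate 2, blue for WT, orange for KO and a line at the mean of the 2 libraries. The *Gli* genes are separated by the widest gaps between genotypes, *Ptch1* is the most abundant gene in all 4 libraries, and *Shh*, *Smo* and *Sufu* show the narrowest gaps.

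The ligand gene *Shh* lies on chromosome 5 from 28456815 to 28467256 on the minus strand of GRCm38. It was close to the lower limit of measurement with 19 counts in each WT library and 22 and 24 in KO, or 2.11 ± 0.351 CPM in WT and 2.63 ± 0.0196 CPM in KO (SD, n = 2). The KO libraries were barely above the WT libraries. The log2 fold change amounted to 0.32 (SE 0.48, adjusted p by edgeR = 0.735), with a 95% interval of the fold from 0.584 to 2.67. The non-coding genes *9530036O11Rik* and *Gm26894* overlap 28.3% of the exonic bases of *Shh* on the other strand. They had at most 9 counts in any library, and as the strand setting of the counting was not given in the sources used here, reads of *Shh* and of these genes cannot be told apart there.

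*Hhip* encodes a membrane protein that binds hedgehog ligands and dampens the pathway, and it lies on chromosome 8 from 79965851 to 80058006. It was counted 13 and 5 times in WT, 48 and 42 times in KO. The WT libraries differed from each other by more than the KO libraries did, with 1.05 ± 0.795 CPM in WT and 5.17 ± 0.764 CPM in KO (SD, n = 2), and the genotypes did not overlap. The log2 fold change amounted to 2.33 (SE 0.59, adjusted p by edgeR = 0.052). In each of the 9 other fits with 4 libraries that tested *Hhip* it passed the threshold, with adjusted p-values from 0.000375 to 0.0447. Its value moved with the WT libraries, and the log2 fold change was 3.35 without WT 1 and 1.66 without WT 2 (adjusted p = 1.16e-05 and 0.0129). It passed without KO 2 (2.47, adjusted p = 0.049) and not without KO 1 (adjusted p = 0.147).

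*Boc* encodes an immunoglobulin-family co-receptor of SHH, which is best known from axon guidance, and lies on chromosome 16 from 44485049 to 44558897. It was counted 108 and 214 times in WT, 207 and 271 times in KO. WT 1 was lower than the other 3 libraries, and the level was 17.2 ± 5.35 CPM in WT and 27.2 ± 3.70 CPM in KO (SD, n = 2). The difference of 0.66 on the log2 scale (SE 0.25) did not pass the threshold (edgeR adjusted p = 0.174), with a 95% interval of the fold from 1.05 to 2.36. It was 1.01 without WT 2 (adjusted p by edgeR = 0.000228) and did not pass without WT 1 (0.37, adjusted p = 0.201), without KO 1 (0.80, adjusted p = 0.2304) or without KO 2 (0.51, adjusted p = 0.749).

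*Ptch1* encodes the receptor that restrains SMO and is itself a target of GLI factors. It lies on chromosome 13 from 63508328 to 63573598 on the minus strand and was the gene of the 9 with the most counts, 833 and 1026 in WT and 1548 and 1744 in KO. This gave 102 ± 2.03 CPM in WT and 188 ± 5.68 CPM in KO (SD, n = 2), so that the genotypes were far apart in relation to the spread between libraries. The log2 fold change amounted to 0.88 (SE 0.14, adjusted p by edgeR = 0.00546), a 1.84-fold increase with a 95% interval from 1.48 to 2.295. The log2 fold change stayed between 0.85 and 0.93 when 1 library was left out, and the adjusted p was 0.0569 without KO 2 and passed the threshold without each of the other 3 libraries.

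*Smo* encodes the signal transducer that PTCH1 inhibits, and *Sufu* the cytoplasmic protein that binds and restrains GLI factors. *Smo*, on chromosome 6 from 29735503 to 29761365, was counted 190 and 275 times in WT, 261 and 287 times in KO, or 25.3 ± 2.37 CPM in WT and 31.3 ± 0.409 CPM in KO (SD, n = 2). *Sufu*, on chromosome 19 from 46396896 to 46488804, was counted 217 and 332 times in WT, 278 and 351 times in KO, or 29.7 ± 3.95 CPM in WT and 35.9 ± 3.96 CPM in KO (SD, n = 2). Both genes were well covered, and the KO libraries were only slightly above the WT libraries. The fold was 1.24 for *Smo* (95% interval 0.933 to 1.64, edgeR adjusted p = 0.344) and 1.20 for *Sufu* (0.897 to 1.62, edgeR adjusted p = 0.43). These intervals end below the lower bounds of the folds of all 3 *Gli* genes.

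The 3 *Gli* genes encode zinc-finger transcription factors, of which GLI1 is an activator, GLI2 the main activator downstream of SMO and GLI3 mainly a repressor in the forebrain. *Gli1* lies on chromosome 10 from 127329882 to 127341974 on the minus strand and was counted 7 and 8 times in WT, 61 and 71 times in KO. *Gli2*, on chromosome 1 from 118834132 to 119053619 on the minus strand, was counted 14 and 18 times in WT, 277 and 366 times in KO. *Gli3*, on chromosome 13 from 15463235 to 15730026 on the plus strand, had 55 counts in each WT library against 466 and 499 in KO. In each of these genes the libraries of 1 genotype were close together and the genotypes were separated by a wide gap.

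*Gli1* rose from 0.826 ± 0.0602 CPM to 7.54 ± 0.401 CPM (SD, n = 2), which is 3.17 on the log2 scale (SE 0.43, adjusted p by edgeR = 0.00265). *Gli2* rose from 1.75 ± 0.0182 CPM to 36.6 ± 5.22 CPM (SD, n = 2), which is 4.38 on the log2 scale (SE 0.27, adjusted p by edgeR = 3.51e-05). *Gli3* rose from 6.11 ± 1.02 CPM to 55.2 ± 0.314 CPM (SD, n = 2), which is 3.18 on the log2 scale (SE 0.20, adjusted p by edgeR = 4.61e-05). All 3 genes passed the threshold without each library in turn, with log2 fold changes from 3.08 to 3.24 for *Gli1*, from 4.23 to 4.53 for *Gli2* and from 3.00 to 3.35 for *Gli3*. Exons of *Arhgap9* and *Gm47200* overlap 6.55% of the exonic bases of *Gli1* on the other strand, with at most 10 counts in any library, and *Gm6556* overlaps 1.96% of those of *Gli3*, with at most 7.

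**Figure D2:**
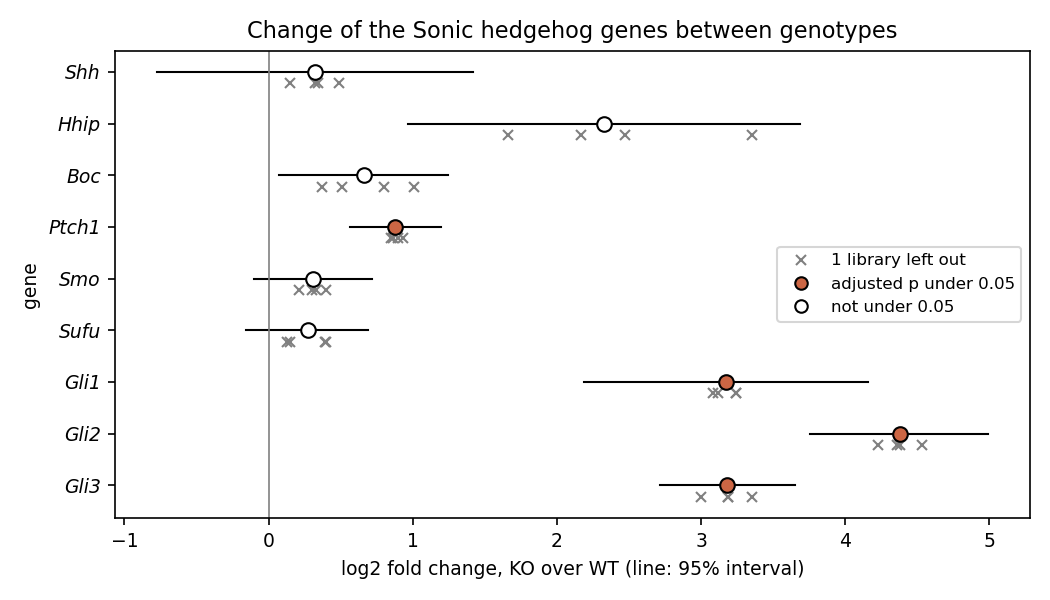
Log2 fold change of KO over WT (x axis) for each Sonic hedgehog gene, with a line for the 95% interval, filled circles where the edgeR adjusted p was under 0.05 and crosses for the fits that leave out 1 library. The *Gli* genes lie between 3.17 and 4.38, and the intervals of *Shh*, *Smo* and *Sufu* include 0.

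To compare genes with each other, CPM was divided by the exonic length in kb. In WT, *Ptch1* was highest with 7.19 ± 0.143 CPM per kb (SD, n = 2), followed by *Smo* with 4.495, *Sufu* with 3.87 and *Boc* with 3.86 CPM per kb, whose neighbours in this order overlapped between libraries. *Shh* (0.741 CPM per kb) and *Gli3* (0.637) also overlapped each other, and *Gli2* (0.255), *Gli1* (0.165) and *Hhip* (0.116) came last, with overlap between *Gli1* and *Hhip*. In WT the receptor, transducer and inhibitor mRNAs were thus several times more abundant per length than those of the 3 transcription factors.

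In KO the order changed. *Ptch1* remained first with 13.3 ± 0.401 CPM per kb (SD, n = 2), and *Gli3* (5.75) and *Gli2* (5.33) now stood among *Boc* (6.12), *Smo* (5.57) and *Sufu* (4.66 CPM per kb). These 5 genes were not in a clear order, since the libraries of *Boc* overlapped those of *Gli3*, *Smo* and *Gli2*, and those of *Gli2* also overlapped those of *Gli3*, *Smo* and *Sufu*. *Gli1* (1.51), *Shh* (0.924) and *Hhip* (0.569 CPM per kb) did not overlap. *Shh* was thus above *Gli1* in both WT libraries and below it in both KO libraries.

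The summed level of the 3 *Gli* genes was 1.14 and 0.976 CPM per kb in WT and 12.0 and 13.2 CPM per kb in KO, and the KO mean was 11.9 times that of WT. The ratio of *Gli1* to *Gli3* was 0.244 and 0.279 in WT and 0.251 and 0.273 in KO, so that the genotypes overlapped. The ratio of *Gli2* to *Gli3* was 0.355 and 0.457 in WT and 0.83 and 1.02 in KO, without overlap. *Gli2* accordingly made up 22.2% and 26.3% of the summed *Gli* level in WT and 39.9% and 44.6% in KO, while *Gli3* went from 62.5% and 57.6% to 48.1% and 43.5%. With 2 libraries per genotype an exact permutation test of such a ratio (two-sided) cannot go below p = 0.333, so these ratios are given without a test.

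**Figure D3:**
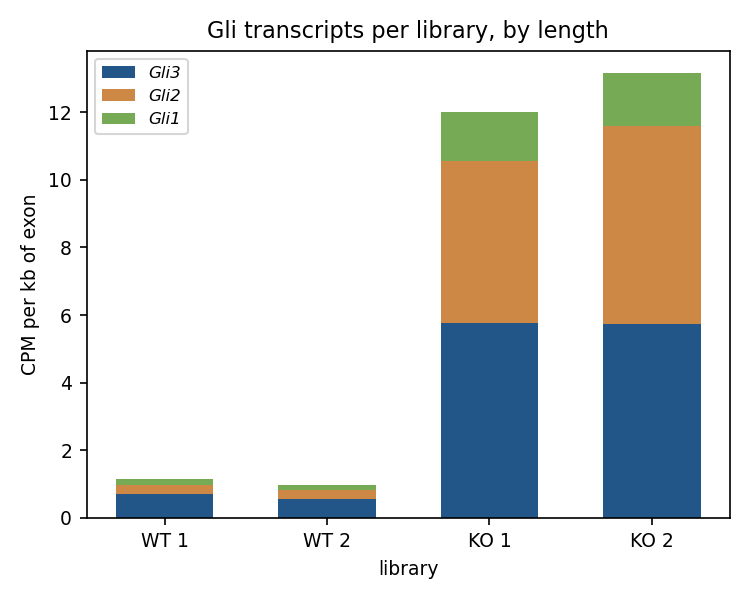
CPM per kb of exon (y axis) of *Gli3*, *Gli2* and *Gli1*, stacked for each of the 4 libraries. The stacks reach 0.976 to 1.14 in WT and 12.0 to 13.2 in KO, and the *Gli2* part takes a larger share in KO.

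The targets of GLI factors within the 9 genes moved by different amounts. The ratio of *Ptch1* to *Gli1* per length was 41.9 and 45.2 in WT and 8.94 and 8.65 in KO, and that of *Ptch1* to *Gli3* was 10.2 and 12.6 in WT and 2.25 and 2.36 in KO. *Ptch1* therefore rose by less than the *Gli* genes in both KO libraries. The ratio of *Smo* to *Sufu* was 1.20 and 1.13 in WT and 1.28 and 1.12 in KO with overlap.

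The other genes of the pathway were read from 4 lists with 51 genes, of which 44 passed the filter on low counts. Of these 44 genes, 4 were called higher and 0 lower by edgeR, and the 9.09% called higher was near the 7.33% of all tested genes. Both counts rose when either WT library was left out, as did the counts of higher and lower genes over all tested genes. At an unadjusted p under 0.05 there were 7 higher and 5 lower, or 15.9% and 11.4%, against 14.6% and 8.01% of all tested genes. DESeq2 called 5 higher and 1 lower, and limma-voom 5 higher and 0 lower, where all tested genes gave 7.40% and 1.47% with DESeq2 and 7.21% and 0.594% with limma-voom. Their median log2 fold change was 0.01, near the -0.026 of all tested genes. Beyond the 9 core genes, the called genes were *Gas1*, *Tulp3*, *Olig2* and *Nkx6-2*.

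Of the genes for ligand production and release, *Hhat*, *Disp1*, *Disp2*, *Scube1* and *Scube3* were tested and 0 of the 5 passed with edgeR, DESeq2 or limma-voom. *Disp2*, a relative of the ligand exporter *Disp1*, had the smallest adjusted p among them with 0.165 (log2 fold change -0.45) and was the 1 gene with an unadjusted p under 0.05. The other hedgehog ligands were nearly absent, with 0 to 6 counts of *Ihh* and 2 to 10 counts of *Dhh* per library, and were not tested.

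Among the 5 other receptors and co-receptors, *Gas1*, which encodes a membrane-anchored co-receptor that promotes SHH signalling, was counted 39 and 40 times in WT and rose to 117 and 123 in KO. Its log2 fold change amounted to 1.65 (SE 0.29, adjusted p by edgeR = 0.00978), and *Gm48488* overlaps 19.9% of its exonic bases on the other strand. *Cdon*, which encodes a co-receptor related to BOC, was counted 350 and 293 times in WT, 232 and 288 times in KO, which is -0.28 on the log2 scale (edgeR adjusted p = 0.507). *Lrp2* had a log2 fold change of 0.12 and *Gpc3* of -0.56, the latter with an edgeR adjusted p of 0.168.

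Of 25 intracellular regulators, edgeR called 1 higher, *Tulp3*, and 0 lower, whereas DESeq2 called 2 higher and 1 lower and limma-voom 2 higher and 0 lower (4 higher and 2 lower at an unadjusted p under 0.05). TULP3 is an adaptor that carries GPR161 and other receptors into the cilium, where GPR161 keeps PKA active and the pathway low. *Tulp3* was counted 169 and 184 times in WT, 449 and 516 times in KO, a 2.83-fold increase with a 95% interval from 2.153 to 3.72 (adjusted p by edgeR = 0.00111). *Gpr161* itself stood at -0.10 on the log2 scale (adjusted p by edgeR = 0.709). The kinesin gene *Kif7* (0.99) and *Evc2* (1.28), whose product acts with SMO at the base of the cilium, did not pass (edgeR adjusted p = 0.0593 and 0.063). The PKA subunit genes *Prkaca*, *Prkacb* and *Prkar1a* had log2 fold changes of -0.15, -0.45 and -0.47, and the smallest adjusted p among these 3 was 0.0878. Both KO libraries lay above both WT libraries in 8 of the 25 regulators, *Kif7* and *Evc2* among them, and below in 6, among them the 3 PKA subunit genes. Of all tested genes, 28.3% had both KO libraries above both WT libraries and 25.2% had both below.

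Of 13 target genes, 9 were tested and 2 were higher in KO. *Olig2*, a transcription factor gene of ventral progenitors and the oligodendrocyte lineage, was counted 641 and 814 times in WT, 1048 and 1110 times in KO, which is 0.63 on the log2 scale (SE 0.14, adjusted p by edgeR = 0.0298). *Nkx6-2*, a homeobox gene of ventral progenitors and oligodendrocytes, was counted 1 and 3 times in WT, 49 and 42 times in KO (edgeR adjusted p = 0.00321). The ratio of the scaled counts was 23.7 with a counting interval (Clopper-Pearson, 95%) from 8.96 to 89.0, which covers counting error only, and *Inpp5a* overlaps 12.9% of the exonic bases of *Nkx6-2* on the other strand.

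The other 7 tested target genes did not pass the test. *Nkx2-1*, the homeobox gene that SHH maintains in the ventral telencephalon, was counted 479 and 394 times in WT, 293 and 372 times in KO, which is -0.37 on the log2 scale (edgeR adjusted p = 0.374). The cyclin genes *Ccnd1* and *Ccnd2* had folds of 0.999 and 0.994 and *Mycn* of 0.773, each with an edgeR adjusted p of at least 0.218. *Mycn* had both KO libraries below both WT libraries and was the 1 target lower at an unadjusted p under 0.05. *Nkx2-2* and *Foxf2* had both KO libraries above both WT libraries, with 0.61 and 1.35 on the log2 scale (adjusted p by edgeR = 0.2695 and 0.235). *Bcl2* stood at 0.13 on the log2 scale (adjusted p by edgeR = 0.759). The remaining 4 target genes, *Nkx2-9*, *Nkx6-1*, *Foxa2* and *Foxf1*, had at most 8 counts in any library and were not tested. *Foxa2*, a floor plate gene, had 0 counts in all 4 libraries, which allows up to 0.294 to 0.372 CPM per library when 3 counts are taken as the floor.

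Since SMO and GLI proteins act at the primary cilium, 27 genes of the cilium were read as well. 1 gene, *Cc2d2a* of the transition zone, was counted 403 and 459 times in WT and rose to 702 and 721 in KO, which is 0.78 on the log2 scale (SE 0.15, adjusted p by edgeR = 0.0144). 0 genes were lower with edgeR, DESeq2 or limma-voom, against 3 at an unadjusted p under 0.05. Over all tested genes, edgeR called 7.33% higher and 0.570% lower, and 8.01% were lower at an unadjusted p under 0.05. The median log2 fold change of the cilium genes was -0.11, and they spanned -0.54 (*Ift88*) to 0.78. At an adjusted p under 0.01, and without KO 1 or KO 2, 0 cilium genes were higher.

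**Figure D4:**
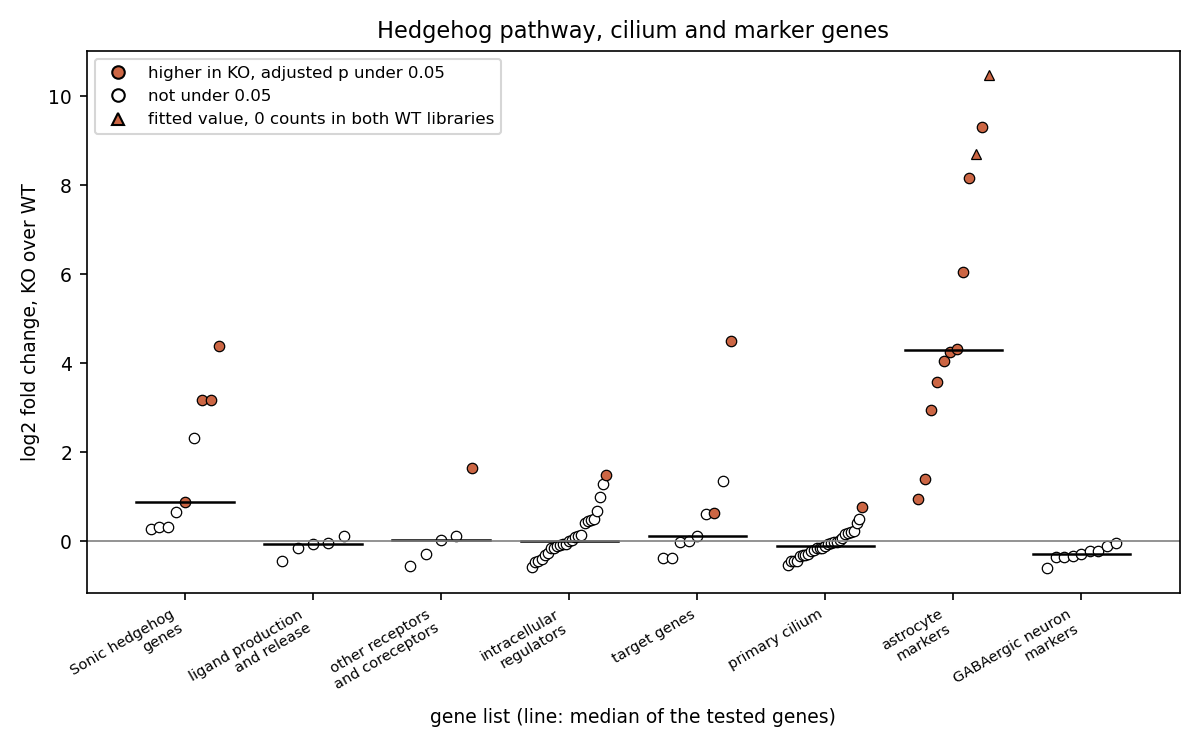
Log2 fold change of KO over WT (y axis) of every tested gene of the 9 Sonic hedgehog genes, of the other hedgehog lists, of cilium genes and of astrocyte and GABAergic neuron markers, with a line at each median. Orange marks genes that were higher at an edgeR adjusted p under 0.05, and triangles are fitted values of genes without counts in WT. The medians of the 4 other hedgehog lists and of the cilium list lie between -0.11 and 0.13, those of the Sonic hedgehog genes and the astrocyte markers at 0.88 and 4.29.

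Markers of astrocytes, oligodendrocytes and mural cells were higher together with the *Gli* genes. All 12 astrocyte markers passed the test as higher after deletion, with a median log2 fold change of 4.29, or 4.20 when *Gfap* and *Agt*, which had 0 counts in both WT libraries, are set to their lower bound. Their summed level was 262 to 277 CPM in WT and 3786 to 3987 CPM in KO, with *Slc1a2*, *Slc1a3* and *Fgfr3* as the most abundant in KO. *Slc1a2*, an astrocytic glutamate transporter gene, was counted 913 and 914 times in WT, 17041 and 16980 times in KO. *Slc1a3* and *Fgfr3* had log2 fold changes of 2.95 and 4.06.

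Of 8 oligodendrocyte markers 6 were higher (summed level 149 to 164 CPM in WT and 566 to 586 CPM in KO), and *Opalin* had 0 counts in both WT libraries. Of 8 mural cell markers 7 were higher (63.1 to 72.1 CPM in WT and 419 to 424 CPM in KO), and *Acta2* had 0 counts in both WT libraries. Of 9 radial glia markers 2, *Hes1* and *Hopx*, were higher with edgeR, and 2 passed with limma-voom, 3 with DESeq2 and 6 at an unadjusted p under 0.05. In 8 of the 9 both KO libraries lay above both WT libraries, a pattern found in 28.3% of all tested genes. *Sox2* was the exception, with both KO libraries below both WT libraries (log2 fold change -0.29, adjusted p by edgeR = 0.302). The summed level of the radial glia markers was 1401 to 1549 CPM in WT and 1863 to 1964 CPM in KO. Of 5 oligodendrocyte precursor markers 0 passed with edgeR or limma-voom (1 with DESeq2 and 4 at an unadjusted p under 0.05), and their summed level was 1409 to 1478 CPM in WT and 1764 to 1877 CPM in KO.

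Of the 5 tested microglia markers 1, *Csf1r*, was higher with edgeR and 1 with DESeq2, 0 with limma-voom and 4 at an unadjusted p under 0.05 (summed level 23.7 to 28.7 CPM in WT and 43.0 to 52.4 CPM in KO). None of 5 tested endothelial markers passed with edgeR, DESeq2 or limma-voom (1 higher and 2 lower at an unadjusted p under 0.05), with 16.4 to 17.5 CPM in WT and 16.3 to 18.6 CPM in KO. Among choroid plexus markers *Ttr* fell from 329 and 564 counts to 8 and 10, which was the 1 called gene of 3 tested. The others, *Kl* and *Kcnj13*, stood at 0.20 and 0.60 on the log2 scale without passing. The summed level was 46.1 to 61.6 CPM in WT and 5.94 to 7.93 CPM in KO, of which *Ttr* made up 40.8 and 55.3 CPM in WT. The part that cells of these types had in the levels of *Gli1*, *Gli2*, *Gli3*, *Ptch1*, *Gas1*, *Tulp3*, *Olig2* and *Nkx6-2* was not tested.

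None of the neuronal markers was called higher. Of 9 GABAergic neuron markers 0 passed with edgeR, DESeq2 or limma-voom (3 lower at an unadjusted p under 0.05), with a median log2 fold change of -0.29 and a summed level of 1474 to 1595 CPM in WT and 1242 to 1348 CPM in KO. Of 10 general neuron markers 3, *Stmn2*, *Syt1* and *Elavl4*, were lower with edgeR, and 3 were lower with limma-voom, 4 with DESeq2 and 8 at an unadjusted p under 0.05. Their median log2 fold change was -0.65, and the summed level was 5770 to 6386 CPM in WT and 4267 to 4335 CPM in KO.

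For *Shh*, *Ptch1* and *Gli1*, the genes with the most similar profile over the 4 libraries were sought by the Euclidean distance of log2 CPM centred on each gene, among tested genes with a mean log2 CPM within 1. For *Ptch1* these were *Ntrk2*, *Phlpp1* and *Farp1* of 2991 candidates, with distances of 0.066, 0.096 and 0.108 and log2 fold changes of 0.93, 0.81 and 0.98. For *Gli1* they were *Syt12*, *Pde8a* and *Htr6* of 4116 candidates, with distances of 0.085, 0.14 and 0.143 and log2 fold changes of 3.35, 2.92 and 3.28. For *Shh* they were *Nr4a2*, *Gm26648* and *Dgat2* of 4143 candidates, with distances of 0.066, 0.081 and 0.094, and none of these 3 passed the test between genotypes (smallest edgeR adjusted p = 0.583). With 4 libraries, such profiles hold little more than the difference between genotypes and the spread within a pair.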

How the data were processed

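RNA of FACS-enriched tdTomato-positive cells was counted in 2 WT and 2 KO libraries. Per the labels and file contents, the authors deposited unnormalised counts of reads for each Ensembl identifier. The submitters' processing notes name CASAVA 1.8.2, STAR 2.5.2a and featureCounts 1.5.0-p1 with mm10 (GRCm38). The strand setting is not given in the sources used here. Of 55573 identifiers, 55480 matched GENCODE M21 (GRCm38), which supplied symbols, positions and lengths. After filtering by expression, 16832 genes were scaled with TMM and compared between genotypes by the quasi-likelihood test of edgeR 4.0.16 in R 4.3.3 (limma 3.58.1 and DESeq2 1.42.0 served for alternatives). Benjamini-Hochberg adjustment covered all tested genes, and genes under 0.05 were called. Standard errors came from the test statistic, and 95% intervals from the t distribution with the degrees of freedom of edgeR. Levels were computed as CPM and as CPM per kb of exon. Replicate numbers were not used for pairing.

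The genes, lists and tests were chosen with earlier results of these data known. The rule for named genes took all 9 genes, every called gene of the pathway and cilium lists (at most 10 per list), *Dnmt1*, up to 3 abundant markers per list and the 3 genes nearest to *Shh*, *Ptch1* and *Gli1*. Other genes of the fixed lists were named after their values were seen. The fits were tested on simulated counts. Alternatives were DESeq2, limma-voom, other scalings, filters and thresholds, a block for replicate number, a correction for exonic length and GC, and omission of each library. The result for 1 gene of the receptor list is not reported here.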

Additional observations from a re-analysis of the deposited data

How the results depend on the processing

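The log2 fold changes of all 9 Sonic hedgehog genes kept their sign in every alternative fit that tested them, also when 1 library was left out. *Ptch1*, *Gli2* and *Gli3* passed the threshold in each of the 10 alternative fits with 4 libraries and *Gli1* in the 9 that tested it, since a minimum of 10 counts in every library removed *Gli1* and *Hhip*. The number of the 9 genes that were higher was between 3 and 6 over all alternatives (between 4 and 6 when 1 library was left out), and 0 were lower. Replicate numbers give no stated pairing. Over genes, the deviations from the genotype mean had a correlation of 0.137 between libraries of equal number, and with the replicate block 6 of the 9 genes were higher, *Hhip* being added with a log2 fold change of 2.41 (adjusted p = 0.0136) and *Boc* with 0.68 (adjusted p = 0.043), and 619 genes of all were lower against 96 without the block.

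Of the other pathway genes, 4 were higher and 0 lower, and 7 were higher under the replicate block, under scaling by library size alone, with the length and GC correction, under that block joined to this correction, and at an adjusted p under 0.1. Lower were 1 with DESeq2 and at an adjusted p under 0.1, 2 without a filter, 3 with the replicate block, and 4 with the length and GC correction alone or with the block. Leaving out 1 library gave 3 to 8 higher and 0 to 9 lower, with 7 and 5 without WT 1 and 8 and 9 without WT 2. Of the cilium genes, 2 were higher under block plus correction and 0 at an adjusted p under 0.01, and leaving out 1 library gave 0 to 2 higher and 0 to 4 lower. Over all genes, 2036 were higher and 701 lower with the correction, 2102 and 755 under block plus correction, and 724 and 16 at an adjusted p under 0.01. At an adjusted p under 0.1, 318 were lower, with DESeq2 247, without a filter 573, and with at least 10 counts in every library 52. Leaving out 1 library gave 900 to 2578 higher and 51 to 2180 lower, with 2578 and 1300 without WT 1, 2029 and 2180 without WT 2 and 900 and 51 without KO 2, and the 3-library fits assume that a lone library varies like the other genotype. The prior degrees of freedom were infinite without a filter and without WT 1 or WT 2, so that the own spread of a gene did not enter there, and they were 669.6 without KO 1 and 434.6 without KO 2 against 6.045 with all libraries, so that it hardly entered there either. The causes of these differences were not tested. Library size as the only scaling moved the median log2 fold change of all genes by 0.11. *Hhip*, *Gli1*, *Gli2* and *Shh* rest on 5 to 19 counts in each WT library, which limits what can be said of them.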
